A study of Mus musculus with 9 samples.

Results

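The 32 genes described here make, regulate, move and break down cholesterol. They were chosen by name, as a list of mouse symbols matched through Ensembl identifiers to 32 of the 37816 rows of the deposited count table. By role, 18 of them are enzymes of sterol synthesis, 4 belong to the pathway of the sterol regulatory element-binding proteins (SREBPs), and 10 act in transport and turnover. All 32 passed the filter on low counts and were tested among 19353 genes. The RNA came from cerebellar tissue of 18-month-old transgenic mice on a C57BL/6 background that model spinocerebellar ataxia type 3 (SCA3), with 3 mice in each of 3 groups. All mice carried a YAC transgene of human ATXN3, whose polyglutamine tract was encoded by 15 CAG repeats in the 15Q control group and by 84 CAG repeats in both other groups, named 84Q and 84Q+IGF-1. From 9 months to 18 months of age, mice received weekly intraperitoneal injections, of 50 mg/kg insulin-like growth factor 1 (IGF-1) in the 84Q+IGF-1 group and, by the study's protocol, of 0.01 M PBS in the 15Q and 84Q groups, whose samples are labelled untreated. No group of 15Q mice given IGF-1 is among these samples. The 15Q and 84Q lines came from different sources, so line and repeat length cannot be told apart.

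Cholesterol does not cross from the blood into the brain in quantity, so brain cells make their own. Acetyl units are joined to mevalonate, mevalonate is turned into isoprenoids and squalene, and squalene is closed to lanosterol and trimmed to cholesterol. When sterol in the endoplasmic reticulum is low, Scap carries the SREBPs to the Golgi for cleavage, and the freed factors switch on the synthesis genes; Insig1 holds Scap back when sterol is plentiful. Oligodendrocytes use much of the brain's sterol for myelin, astrocytes export cholesterol on Apoe particles, and neurons dispose of the excess through Cyp46a1. The liver X receptors, Nr1h2 and Nr1h3, sense oxysterols and switch on exporters such as Abca1.

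Promoter sequences were looked at for what the synthesis genes share. RefSeq windows on GRCm38.p6, from 250 bases before to 50 bases after a gene's start, were held for 27 of the 32 genes. The sterol regulatory element was searched as TCACNCCAC on both strands, and among the 27 genes only Hmgcs1 had it, against 1.45% of the 12731 tested genes with a window. The CCAAT box was searched as CCAAT on both strands and was present in 14 of 15 synthesis enzymes with a window, 93.3%, against 42.6% of the tested genes. The GC box, GGGCGG, was also present in 14 of 15, against 64.1%. The E-box CACGTG was present in 3 of 15, against 10.8%, and the direct-repeat element of the liver X receptors in none of the 27. A match describes letters in a window and does not show that a factor binds there. The 3 synthesis genes that passed the expression test below are shown, with the sterol regulatory element and the CCAAT boxes (some read as ATTGG, on the other strand) in capitals. The Hmgcs1 stretch, chr13:119690171-119690350 on the plus strand, ends at the base before the RefSeq start and holds a sterol regulatory element between a pair of CCAAT boxes. The Idi1 site, chr13:8885549-8885577 on the plus strand, holds a box that begins 45 bases before the RefSeq start. The Msmo1 site, chr8:64733658-64733686 on the minus strand, holds a box that begins 96 bases before the RefSeq start. Each is shown as an example, since the Idi1 window holds a further box 14 bases before the start and the Msmo1 window further boxes 160 and 55 bases before it. The Hmgcs1 window also holds boxes outside the printed stretch, 237 bases before and 10 bases after the start. In both Idi1 and Msmo1, GENCODE places the start of the gene further upstream, by 105 and 214 bases, so both sites lie inside the GENCODE gene.
Hmgcs1: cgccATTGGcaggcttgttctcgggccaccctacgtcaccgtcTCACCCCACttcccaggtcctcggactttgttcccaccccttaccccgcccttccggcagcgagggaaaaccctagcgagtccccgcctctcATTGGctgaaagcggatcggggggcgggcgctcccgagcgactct
Idi1: tgcctccagctgATTGGcgagcccgggca
Msmo1: ccttagcacggaCCAATcactgcacggcg

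The libraries held 17482654 to 58269196 counts, with the 15Q group the deepest at a median of 40249019, and 3 counts corresponded to 0.0515 to 0.172 CPM, the count scaled to library size. Cerebellar identity held in every library, with granule cell markers summing to 4856 to 5582 CPM and Purkinje cell markers to 6707 to 7454 CPM. Other tissue markers varied between libraries. The 12 choroid plexus markers summed to 1157 to 2111 CPM in 15Q replicates 1 and 3 and 84Q replicate 2, against 121 to 214 CPM in the other 6 libraries. Meninges and fibroblast markers summed to 142 to 222 CPM in 15Q against 70.0 to 126 CPM in the 84Q and 84Q+IGF-1 libraries. Intestine markers were also higher in 15Q, at 22.8 to 36.0 CPM against 4.04 to 5.93 CPM, as were liver markers, at 13.8 to 26.9 CPM against 2.43 to 4.05 CPM. At least 5 of the 6 genes of either list exceeded 3 counts in each 15Q library, whereas between 1 and 4 genes of each list were at 0 in every other library. The 10 oligodendrocyte markers, all detected in every library, summed to 3158 to 4148 CPM in 84Q+IGF-1, against 4202 to 4524 CPM in 15Q and 4130 to 5182 CPM in 84Q. The 8 microglia markers, all detected in every library, summed to 194 to 237 CPM in 84Q, above every 15Q library (159 to 193 CPM) and every 84Q+IGF-1 library (170 to 186 CPM). Astrocyte markers summed to 3302 to 3834 CPM. Blood markers reached 211 CPM in 15Q replicate 2 and 22.9 to 80.9 CPM elsewhere. Endogenous mouse Atxn3 lay between 25.1 and 30.2 CPM in all libraries, which does not check the labels, since the transgene is human and its reads were not analysed here.

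On a scale that also corrects for transcript length (TPM), the cholesterol genes of 15Q cerebellum spanned a wide range. Apoe, the main lipid carrier secreted by astrocytes, stood far above the rest at 2368 TPM ± 107 (SD, n = 3). Insig1 at 108 TPM ± 9.05 and Srebf2, the SREBP that acts mainly on cholesterol genes, at 105 TPM ± 4.83 came next and did not differ beyond their spread. Among the enzymes, Sc5d (lathosterol oxidase, 74.9 TPM ± 4.57), Hmgcs1 (cytosolic HMG-CoA synthase, 70.3 TPM ± 3.06), Pmvk (phosphomevalonate kinase, 57.1 TPM ± 2.95) and Idi1 (isopentenyl diphosphate isomerase, 46.1 TPM ± 3.80) were the most abundant. The late enzymes Lss, Nsdhl, Tm7sf2, Msmo1 and Hsd17b7 lay together between 13.1 and 16.6 TPM. At the bottom were Ch25h, which makes an oxysterol, at 2.07 TPM ± 0.772 and Fdps, farnesyl diphosphate synthase, at 1.08 TPM ± 0.192. Fdps shares 27.9% of its 31-base words with other genes, mainly pseudogenes, and Acat2 shares 43.7%, mainly with Acat3, so their counts are uncertain. Idi1 shares 18.8%, mainly with the pseudogene Gm13502, which was itself counted at 4.52 to 6.83 CPM. Fdft1 shares 14.3%, with Gm6781, and Tm7sf2 shares 12.9%, mainly with Vps51. Apart from that share, Fdft1 overlaps Ctsb on the other strand. Acat2, Cyp51, Srebf1 and Npc1 also overlap a gene on the other strand (Tcp1, Akap9, Rai1 and Rmc1).

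**Figure D1:**
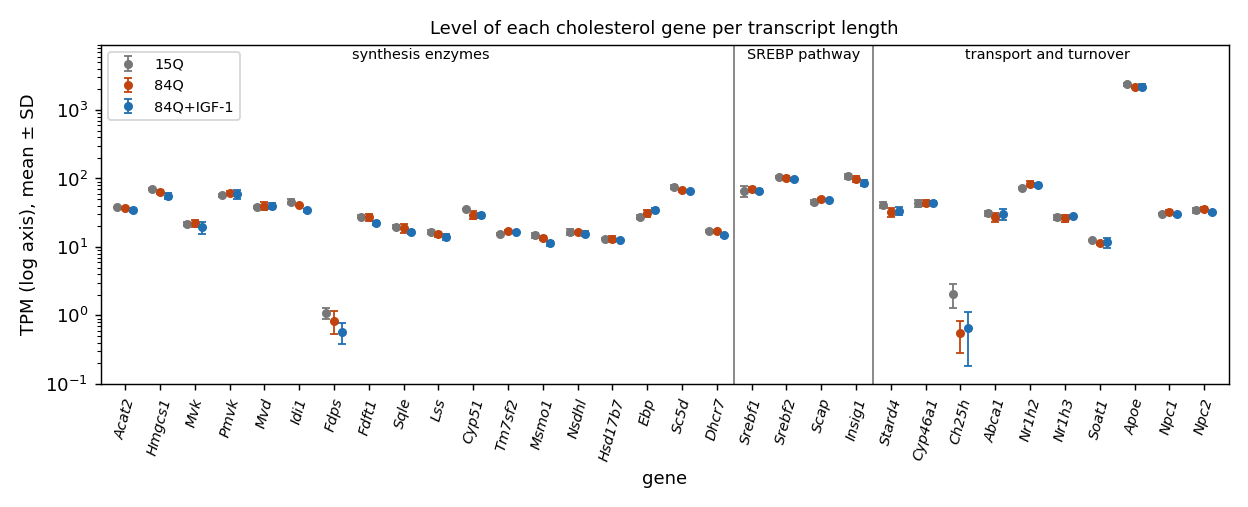
Level of each of the 32 genes in TPM on a log axis, as the mean ± SD of the 3 libraries of 15Q (grey), 84Q (red) and 84Q+IGF-1 (blue), with the genes grouped by role. Apoe lies between 2161 and 2368 TPM, Fdps and Ch25h between 0.558 and 2.07 TPM, and the other 29 genes between 11.2 and 108 TPM.

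Replicates agreed closely for most members. The coefficient of variation over the 3 libraries had a median over the 32 genes of 5.79% for 15Q, of 8.17% for 84Q, and of 6.65% for 84Q+IGF-1. Ch25h varied most in each group, by 36.8%, 49.5% and 71.3%. The heat map of the members by library shows the pattern described in the comparisons below, in which most synthesis enzymes were lowest in 84Q+IGF-1 libraries.

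**Figure D2:**
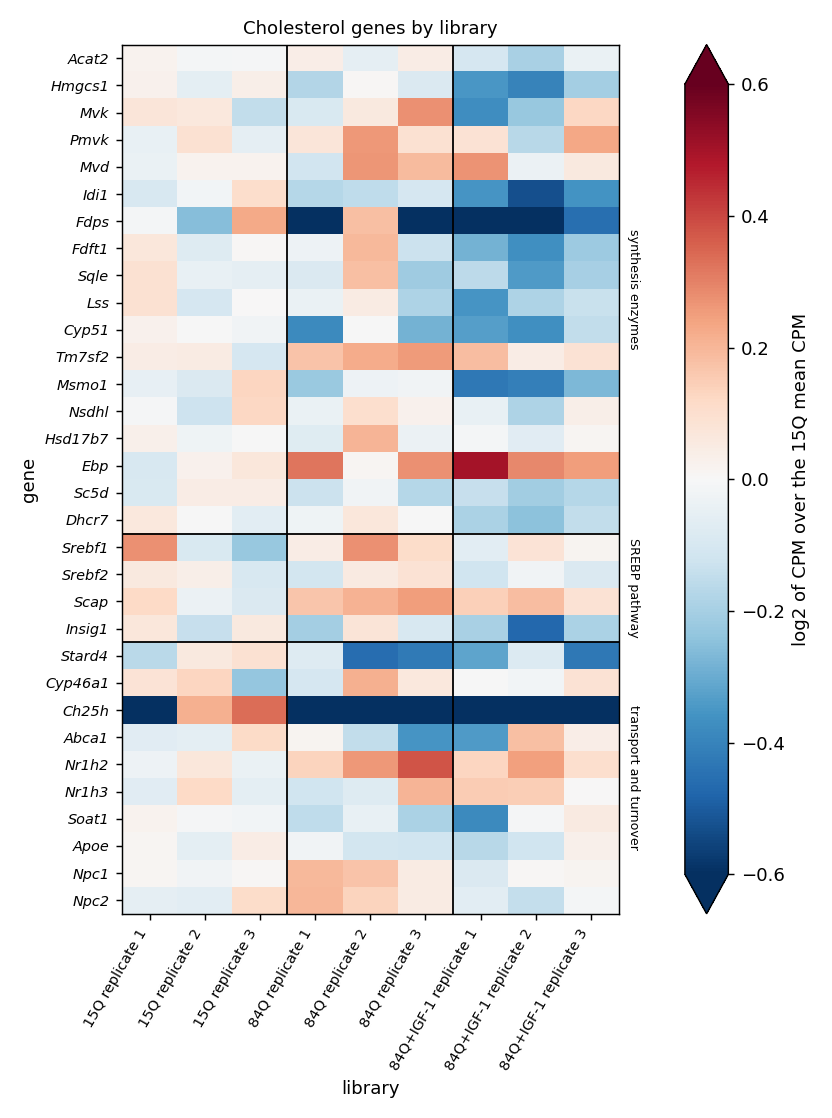
Heat map of the log2 ratio of each library's CPM to the 15Q mean CPM for the 32 genes (rows, grouped by role) in the 9 libraries (columns, grouped by genotype and treatment), with colours saturating at 0.6 in either direction. The lowest level was in an 84Q+IGF-1 library for 13 of the 18 synthesis enzymes, and in 84Q+IGF-1 replicate 2 for 9 of them.

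The comparison of 84Q with 15Q asked how the expanded repeat line differed from the control line. In edgeR's quasi-likelihood test, 3 of the 32 genes passed an adjusted p-value threshold of 0.1, a share of 9.38% against 4.80% of all genes tested. Nr1h2 and Scap rose and Ch25h fell, while none of the 18 synthesis enzymes passed. Ch25h alone was differentially expressed by the added requirement of a 1.5-fold difference, 1 of 32, or 3.13%, against 2.14% of all genes. The median log2 fold change of the enzymes was 0.013, with 10 higher and 8 lower, beside a median of -0.0019 over all genes.

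Nr1h2, the liver X receptor beta gene at chr7:44549616-44553951, measured 59.0, 63.3 and 58.7 CPM in 15Q, 66.2, 72.2 and 78.3 CPM in 84Q, and 66.0, 71.5 and 64.6 CPM in 84Q+IGF-1. All 15Q libraries lay below all the others. Its log2 fold change in 84Q was 0.26 (SE 0.068, adjusted p = 0.0821 in edgeR). With any one of 15Q replicates 1, 2 and 3 or 84Q replicates 2 and 3 left out, the adjusted p was 0.125, 0.165, 0.264, 0.128 and 0.246.

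Scap, the SREBP escort at chr9:110333288-110384950, measured 90.7, 81.5 and 78.6 CPM in 15Q, 93.9, 96.7 and 99.5 CPM in 84Q, and 92.3, 95.0 and 88.8 CPM in 84Q+IGF-1. The 15Q and 84Q libraries did not overlap, though 15Q replicate 1 came near. The log2 fold change in 84Q was 0.21 (SE 0.0594, adjusted p = 0.0924 in edgeR). Left out one at a time, 15Q replicates 2 and 3 moved the adjusted p to 0.287 and 0.324, 84Q replicates 1, 2 and 3 to 0.105, 0.142 and 0.258, and 84Q+IGF-1 replicates 2 and 3 to just over the threshold, the latter to 0.102. The gene overlaps 5830462I19Rik on the other strand, and the strand setting of the counting is not given in the sources used here.

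Ch25h at chr19:34473778-34475164, an intronless gene of low expression, had 11, 33 and 52 counts in 15Q, 8, 2 and 4 counts in 84Q, and 4, 11 and 3 counts in 84Q+IGF-1. As levels these were 0.409, 0.819 and 0.889 CPM, then 0.276, 0.0879 and 0.228 CPM, then 0.172, 0.414 and 0.103 CPM. All 84Q libraries were below all 15Q libraries, whereas 84Q+IGF-1 replicate 2 reached the lowest 15Q library. Gm26902 overlaps Ch25h on the other strand and was itself counted at 0.0858 to 0.345 CPM, a level like that of Ch25h. Without the strand setting of the counting, reads of this pair cannot be told apart with certainty. Its log2 fold change in 84Q was -1.84 (SE 0.528, adjusted p = 0.0981 in edgeR), and the adjusted p was 0.113 in DESeq2. Leaving out 15Q replicate 2, 15Q replicate 3, 84Q replicate 1, 84Q replicate 2 or 84Q replicate 3 moved it to 0.273, 0.319, 0.108, 0.189 and 0.233. Meninges and fibroblast, intestine and liver markers were higher in the same 3 15Q libraries, and their part in the Ch25h difference was not tested. With the choroid plexus marker level as a covariate, the adjusted p was 0.122 for Nr1h2 and 0.131 for Scap. Without the 3 libraries high in those markers it was 0.674 for Nr1h2, 0.461 for Scap and 0.557 for Ch25h.

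Counting genes whose 84Q and 15Q libraries did not overlap, 4 of 32 members were higher in 84Q (Npc1, Nr1h2, Scap, Tm7sf2), against 11.9% of all genes, and 3 were lower (Ch25h, Idi1, Soat1), against 13.5%. Npc1, which exports cholesterol from lysosomes, measured 84.8 to 86.7 CPM in 15Q and 88.8 to 98.3 CPM in 84Q (log2 fold change 0.14, SE 0.0529, adjusted p = 0.182 in edgeR). Tm7sf2, a sterol reductase, measured 15.7 to 17.3 CPM in 15Q and 18.9 to 20.0 CPM in 84Q (log2 fold change 0.22, SE 0.0804, adjusted p = 0.173 in edgeR). Stard4, which ferries sterol between membranes, measured 50.6, 59.0 and 60.2 CPM in 15Q against 53.7, 41.2 and 42.2 CPM in 84Q, a difference that did not pass (log2 fold change -0.31, adjusted p = 0.178 in edgeR). Microglia markers were higher in the same 84Q libraries as Npc1, and their part in its difference was not tested.

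The comparison of 84Q+IGF-1 with 15Q used the same 3 15Q libraries as controls. Of the 32 genes, 3 passed the adjusted p-value threshold of 0.1, all of them synthesis enzymes and all lower: Idi1, Hmgcs1 and Msmo1. They were 3 of 18 enzymes, against 2.63% of all genes lower at this threshold and 3.67% in either direction. None reached a 1.5-fold difference, against 2.25% of all genes. The enzymes as a list had a median log2 fold change of -0.18, beside -0.0051 over all genes, with 14 lower and 4 higher.

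Idi1 at chr13:8885501-8892451, which interconverts the isoprenoid building blocks, measured 37.3, 39.4 and 42.9 CPM in 15Q, 35.4, 35.8 and 37.1 CPM in 84Q, and 31.2, 27.7 and 31.1 CPM in 84Q+IGF-1. The 3 groups formed 3 separate ranges, with 84Q+IGF-1 the lowest. Its log2 fold change against 15Q was -0.41 (SE 0.0756, adjusted p = 0.0161 in edgeR). The adjusted p was between 0.0143 and 0.09 with each library left out in turn.

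Hmgcs1 at chr13:119690379-119708260, which condenses acetyl units ahead of mevalonate, measured 81.0, 76.4 and 81.6 CPM in 15Q, 70.4, 80.0 and 75.1 CPM in 84Q, and 62.5, 60.3 and 69.3 CPM in 84Q+IGF-1. The 84Q+IGF-1 libraries were all below the 6 others. Its log2 fold change against 15Q was -0.31 (SE 0.0647, adjusted p = 0.0320 in edgeR). Without 15Q replicate 3, 84Q+IGF-1 replicate 1 or 84Q+IGF-1 replicate 2 the adjusted p was 0.147, 0.108 and 0.101.

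Msmo1 at chr8:64718139-64733792, a methylsterol monooxygenase acting after lanosterol, measured 21.7, 21.1 and 24.5 CPM in 15Q, 19.2, 22.0 and 22.1 CPM in 84Q, and 16.6, 16.9 and 18.6 CPM in 84Q+IGF-1. Again the 84Q+IGF-1 libraries were below the 6 others. Its log2 fold change against 15Q was -0.37 (SE 0.0916, adjusted p = 0.0670 in edgeR). Without 15Q replicate 2, 15Q replicate 3, 84Q+IGF-1 replicate 1 or 84Q+IGF-1 replicate 2 the adjusted p was 0.125, 0.288, 0.218 and 0.143.

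**Figure D3:**
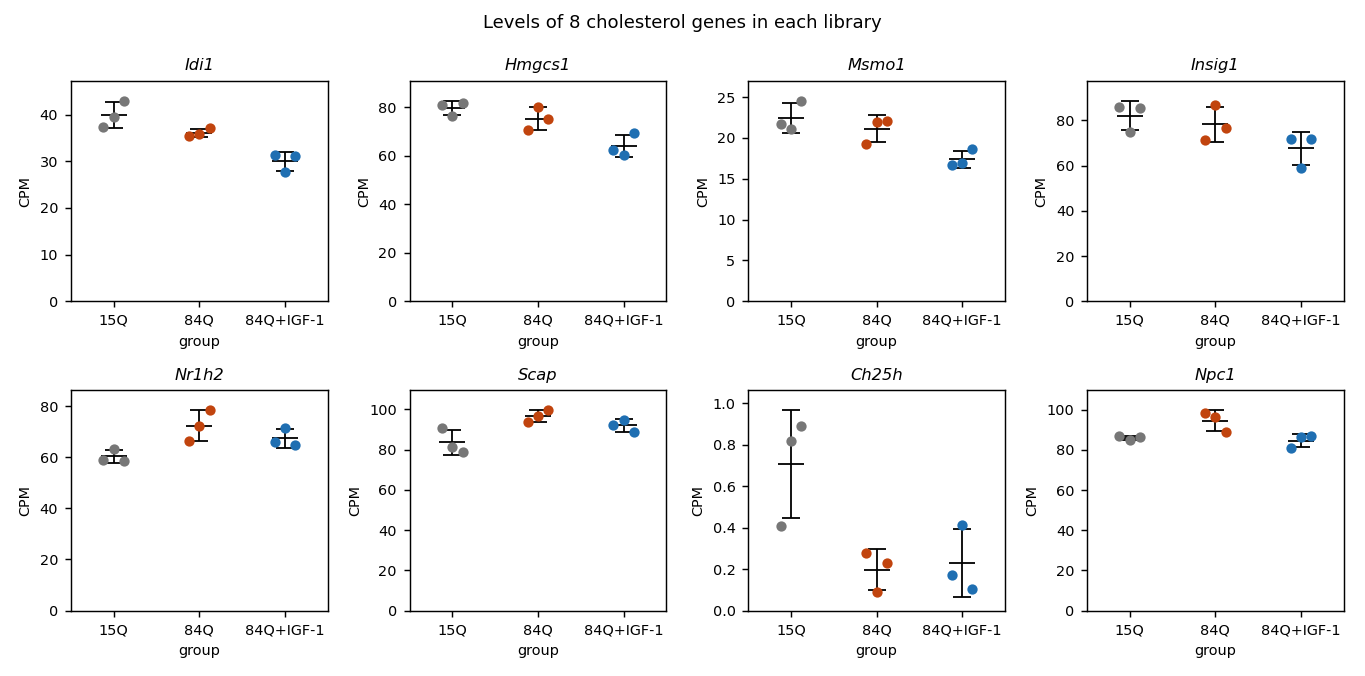
CPM of 8 genes in the 3 libraries of each group (points), with the mean and SD (black bars) and axes starting at 0. Idi1, Hmgcs1 and Msmo1 lie lowest in 84Q+IGF-1, Nr1h2 and Scap have their lowest mean in 15Q, and Ch25h is at most 0.889 CPM.

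The other enzymes did not pass the test. Libraries did not overlap, with 84Q+IGF-1 below 15Q, for 11 of the 18 enzymes or 61.1%, against 13.0% of all genes. These were Acat2, Hmgcs1, Idi1, Fdps, Fdft1, Sqle, Lss, Cyp51, Msmo1, Sc5d and Dhcr7, which span the route from its first step to its last. Squalene synthase, Fdft1, measured 30.2, 27.3 and 29.0 CPM in 15Q and 23.7, 22.3 and 24.8 CPM in 84Q+IGF-1 (log2 fold change -0.29, SE 0.0909, adjusted p = 0.141 in edgeR). Fdft1 passed in 4 of 22 alternative settings, among them DESeq2 (adjusted p = 0.0896) and edgeR with no filter on low counts (0.0485). Sqle, the squalene epoxidase, measured 29.0, 26.4 and 26.2 CPM in 15Q, 25.6, 30.9 and 23.4 CPM in 84Q, and 24.4, 21.5 and 23.7 CPM in 84Q+IGF-1, with 84Q overlapping both other groups (log2 fold change of 84Q+IGF-1 against 15Q -0.23, adjusted p = 0.270 in edgeR). Cyp51, lanosterol demethylase, measured 39.4, 38.7 and 38.3 CPM in 15Q, 29.7, 38.7 and 31.9 CPM in 84Q, and 30.9, 30.0 and 35.0 CPM in 84Q+IGF-1 (log2 fold change of 84Q+IGF-1 against 15Q -0.28, adjusted p = 0.170 in edgeR). Cyp51 passed in 3 of 22 alternative settings, among them edgeR with no filter on low counts (adjusted p = 0.0314). Fdps had the most negative value, at a log2 fold change of -0.88, but from 30, 38 and 77 counts in 15Q and 11, 14 and 24 counts in 84Q+IGF-1, and with an SE of 0.314 and an adjusted p of 0.179 in edgeR.

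Ebp, the sterol isomerase, was the one enzyme with all 84Q+IGF-1 libraries above all 15Q libraries, as were 11.7% of all genes, at 22.4, 19.4 and 18.8 CPM against 14.8, 16.1 and 16.6 CPM. Its difference did not pass in edgeR (log2 fold change 0.35, SE 0.103, adjusted p = 0.119), and passed in DESeq2 (adjusted p = 0.0483). The mevalonate-handling enzymes Mvk, Pmvk and Mvd overlapped between these groups. Mvk measured 11.0 to 15.5 CPM in 84Q+IGF-1 against 12.8 to 15.0 CPM in 15Q, and Pmvk 21.5 to 28.4 CPM against 23.3 to 25.7 CPM.

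**Figure D4:**
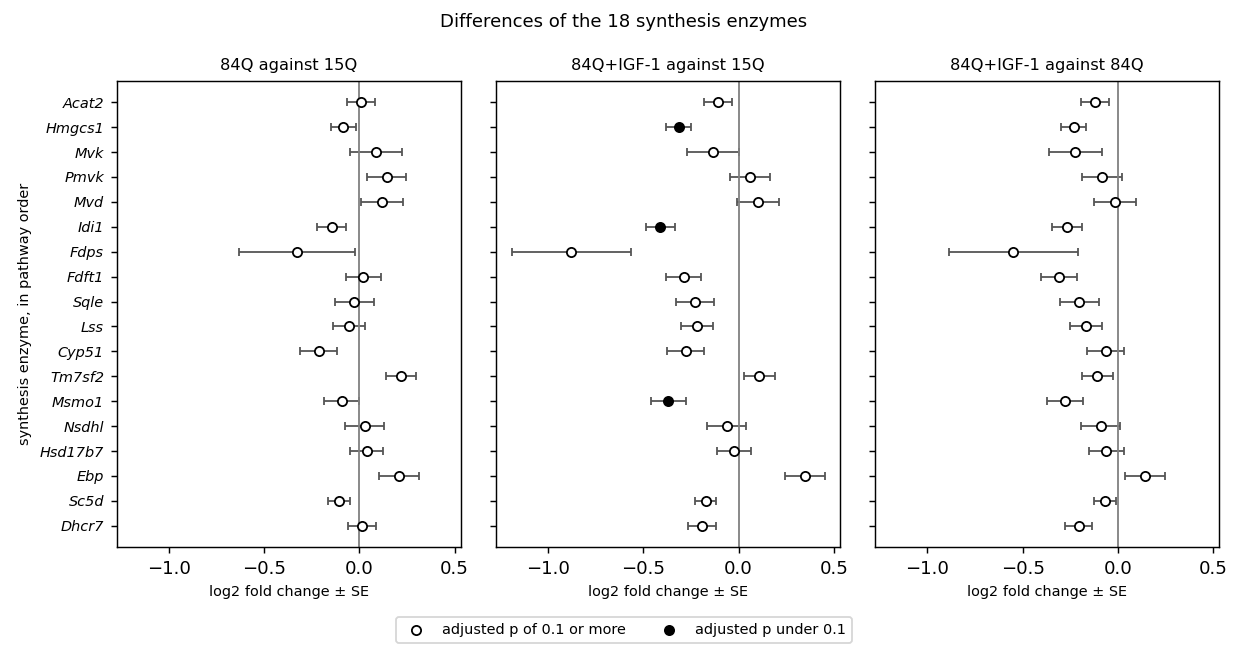
Log2 fold change ± SE of the 18 synthesis enzymes in the 3 comparisons, in pathway order from top to bottom, with filled points for an adjusted p under 0.1. In 84Q against 15Q the points lie on both sides of 0, in 84Q+IGF-1 against 15Q 14 lie below 0 and 3 are filled, and in 84Q+IGF-1 against 84Q 17 lie below 0 and none is filled.

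Direct comparison of 84Q+IGF-1 with 84Q tests the treatment within the 84Q line. No gene of the 19353 passed the adjusted p-value threshold of 0.1 in edgeR, 0.00% of all genes, with 905 at an unadjusted p under 0.05. DESeq2 called 6 genes differentially expressed, none of them among the 32. Among the enzymes 17 of 18 were lower in 84Q+IGF-1, with a median log2 fold change of -0.14 beside -0.0033 over all genes. At an unadjusted p under 0.05, 5 enzymes were lower, against 2.84% of all genes, and the libraries of the same 5 did not overlap, against 4.50%: Hmgcs1, Idi1, Fdft1, Msmo1 and Dhcr7. The log2 fold changes were -0.23 (SE 0.0654) for Hmgcs1, -0.27 (SE 0.0767) for Idi1, -0.31 (SE 0.092) for Fdft1, -0.28 (SE 0.0932) for Msmo1 and -0.21 (SE 0.0733) for Dhcr7, a late sterol reductase, each with an adjusted p of 0.969 in edgeR. Fdft1 measured 28.3, 33.0 and 26.4 CPM in 84Q, all above its 84Q+IGF-1 values. None of these differences therefore passed once all genes tested were accounted for.

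The lysosomal pair Npc1 and Npc2 was the other place where 84Q+IGF-1 and 84Q libraries did not overlap. Npc1 measured 98.3, 96.6 and 88.8 CPM in 84Q and 80.8, 86.3 and 86.8 CPM in 84Q+IGF-1 (log2 fold change -0.16, SE 0.0533, adjusted p = 0.969 in edgeR), with 15Q at 84.8 to 86.7 CPM. Npc2, which hands cholesterol to Npc1, measured 52.9, 50.4 and 47.5 CPM in 84Q and 44.0, 41.7 and 45.6 CPM in 84Q+IGF-1 (log2 fold change -0.20, SE 0.0702, adjusted p = 0.969 in edgeR). Microglia markers also separated these groups, at 194 to 237 CPM in 84Q against 170 to 186 CPM in 84Q+IGF-1, and their part in both differences was not tested.

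Summed over the 18 enzymes, the level was 475 CPM ± 22.8 (SD, n = 3) in 84Q+IGF-1, against 537 CPM ± 6.21 in 15Q and 525 CPM ± 27.9 in 84Q. The 84Q+IGF-1 sums, 477, 451 and 496 CPM, were below the 15Q sums of 537, 531 and 543 CPM and the 84Q sums of 504, 557 and 515 CPM. As a mean of log2 CPM over the enzymes, 84Q+IGF-1 was 0.17 below 15Q and 0.16 below 84Q, and 84Q was 0.012 below 15Q, beside SDs between libraries of 0.0234 (15Q), 0.09 (84Q) and 0.0863 (84Q+IGF-1). In bulk tissue, fewer cells of a type and less RNA per cell cannot be told apart. Oligodendrocyte markers, at 3158, 3910 and 4148 CPM in 84Q+IGF-1, were below all 15Q libraries. Their mean was also lower than in 84Q, at 3739 against 4511 CPM, though 84Q, at 5182, 4220 and 4130 CPM, overlapped 84Q+IGF-1. The part of these markers in the differences of the enzyme sums was not tested. In a fit with the oligodendrocyte marker level as a covariate, the log2 fold changes against 15Q were -0.43 for Idi1, -0.32 for Hmgcs1 and -0.37 for Msmo1, with adjusted p of 0.0954, 0.170 and 0.298. With the choroid plexus marker level as a covariate they were -0.41, -0.24 and -0.30, with adjusted p of 0.0915, 0.226 and 0.357. Without 15Q replicates 1 and 3 and 84Q replicate 2, which leaves a single 15Q library assumed to vary like the others, they were -0.38, -0.25 and -0.27, with adjusted p of 0.354, 0.583 and 0.714, and none of the 32 genes passed.

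**Figure D5:**
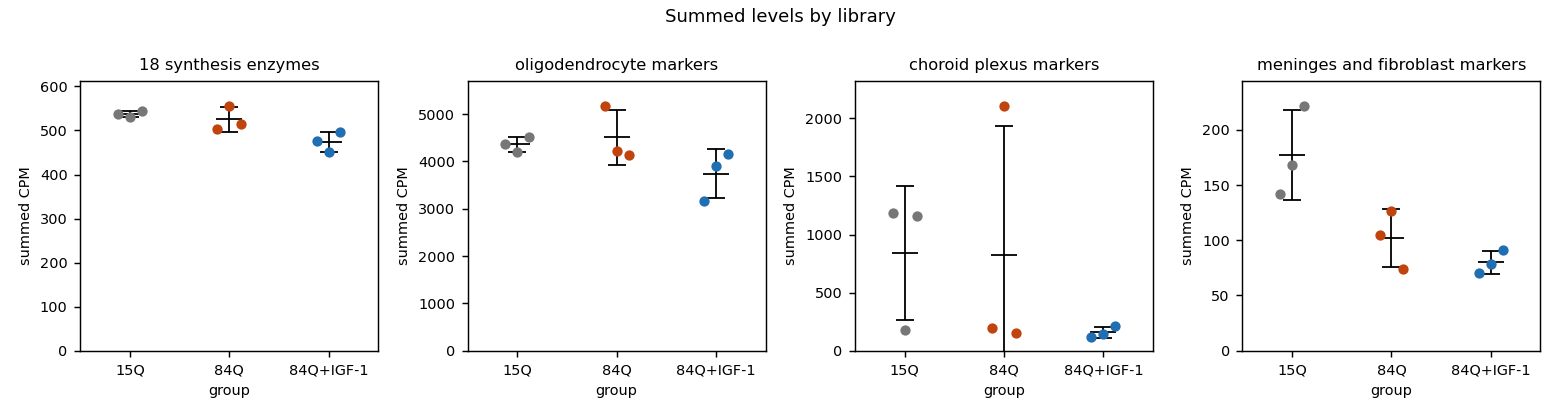
Summed CPM of the 18 synthesis enzymes and of the oligodendrocyte, choroid plexus, and meninges and fibroblast marker lists in the 3 libraries of each group (points), with the mean and SD (black bars) and axes starting at 0, where the SD bar of the 84Q choroid plexus markers ends. The enzyme sums of 84Q+IGF-1, 451 to 496 CPM, lie below all others, and choroid plexus markers stand apart in 3 libraries.

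Of the 4 SREBP pathway genes, Scap alone passed a comparison reported here. Srebf2 measured 193, 190 and 174 CPM in 15Q, 172, 193 and 197 CPM in 84Q, and 171, 183 and 175 CPM in 84Q+IGF-1, with overlapping groups and adjusted p of 0.937, 0.589 and 0.969 in the 3 comparisons in edgeR. Srebf1, which also drives fatty acid synthesis, varied most within 15Q, from 77.7 to 110 CPM, and all 84Q and 84Q+IGF-1 libraries fell within that range. Insig1, both a brake on Scap and an SREBP target, measured 86.1, 74.7 and 85.7 CPM in 15Q, 71.3, 86.8 and 76.8 CPM in 84Q, and 71.7, 59.2 and 72.0 CPM in 84Q+IGF-1. All 84Q+IGF-1 values of Insig1 were below all 15Q values, but the difference did not pass (log2 fold change -0.28, SE 0.0915, adjusted p = 0.149 in edgeR). It passed with Xist as a covariate (adjusted p = 0.0377) and with no filter on low counts (adjusted p = 0.00302).

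Export and turnover genes overlapped between groups in most cases. Abca1, which loads cholesterol onto apolipoproteins, measured 76.2, 76.8 and 86.6 CPM in 15Q, 80.8, 72.2 and 62.4 CPM in 84Q, and 63.1, 90.6 and 82.0 CPM in 84Q+IGF-1. Apoe measured 1258, 1201 and 1289 CPM in 15Q, 1229, 1158 and 1149 CPM in 84Q, and 1113, 1151 and 1275 CPM in 84Q+IGF-1. Cyp46a1, the neuronal enzyme that hydroxylates cholesterol for removal from the brain, measured 37.7, 38.9 and 30.3 CPM in 15Q, 33.3, 41.3 and 37.2 CPM in 84Q, and 35.6, 35.3 and 37.9 CPM in 84Q+IGF-1. None of these 3 genes passed in any comparison, and their groups overlapped throughout. Nr1h3, the liver X receptor alpha gene, lay between 15.4 and 19.3 CPM in all libraries, and Soat1, which esterifies cholesterol for storage, between 23.5 and 31.8 CPM, and neither passed.

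Taking the 6 libraries of both 84Q groups together against 15Q, 2 of 32 genes rose at an adjusted p of 0.1, against 4.04% of all genes, and 4 fell, against 6.01%. Ch25h again alone passed with a difference of at least 1.5-fold, against 3.47% of all genes. Ch25h fell (log2 fold change -1.74, SE 0.401, adjusted p = 0.0308), as did Idi1 (-0.27, adjusted p = 0.0907), Stard4 (-0.29, adjusted p = 0.0945) and Cyp51 (-0.25, adjusted p = 0.0950), in edgeR. Nr1h2 (0.21, adjusted p = 0.0705) and Scap (0.18, adjusted p = 0.0745) rose. Stard4 measured 45.4, 53.5 and 42.0 CPM in 84Q+IGF-1. Its levels in 84Q replicate 1 and 84Q+IGF-1 replicate 2 reached the 15Q range, as did that of Cyp51 in 84Q replicate 2. Without 15Q replicate 2, or without 15Q replicate 3, none of the 32 genes passed, with Ch25h at an adjusted p of 0.136 and 0.196. The other 5 genes also lost the call without at least 1 further library. For Nr1h2 it was 15Q replicate 1 (adjusted p = 0.139), and for Scap 84Q replicate 1, by a margin in the fourth digit, and 84Q replicate 3 (0.119). For Idi1 it was each of the 84Q+IGF-1 replicates 1, 2 and 3 (0.154, 0.110 and 0.126). For Stard4 the libraries were 84Q replicates 2 and 3 (0.134 and 0.162) and 84Q+IGF-1 replicates 1 and 3 (0.149 and 0.131), and for Cyp51 15Q replicate 1 (0.178), 84Q replicates 1 and 3 (0.139 and 0.155) and 84Q+IGF-1 replicates 1 and 2 (0.161 and 0.136). With the choroid plexus marker level as a covariate, the adjusted p was 0.151 for Nr1h2, 0.117 for Scap, 0.221 for Idi1 and 0.235 for Cyp51. With that of oligodendrocytes these were 0.111, 0.111, 0.153 and 0.147, with 0.158 for Stard4. Without the 3 libraries high in choroid plexus markers, none of the 6 genes passed, at adjusted p of 0.315 (Ch25h) to 0.715 (Nr1h2).

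Of 31 further cholesterol genes, 30 were tested. Abcg1, a sterol exporter and liver X receptor target, was the only one of the 30 to rise in 84Q, against 1.54% of all genes higher (log2 fold change 0.25, SE 0.0607, adjusted p = 0.0602 in edgeR). In 84Q+IGF-1 against 15Q, Abcg1 (0.29, SE 0.0606, adjusted p = 0.0369) and Abca7, another lipid transporter (0.24, SE 0.0578, adjusted p = 0.0579), rose in edgeR, 2 of 30 against 1.04% of all genes higher. Abcg1 measured 125 to 141 CPM in 15Q, 149 to 166 CPM in 84Q and 158 to 162 CPM in 84Q+IGF-1, with 15Q below both. Without 15Q replicate 2 or 15Q replicate 3, the adjusted p of Abcg1 was 0.215 and 0.235 in 84Q and 0.150 and 0.170 in 84Q+IGF-1, and without 84Q replicate 3 it was 0.189 in 84Q. For Abca7 it was 0.183, 0.237 and 0.181 without 15Q replicate 2, 15Q replicate 3 or 84Q+IGF-1 replicate 1. Both calls in 84Q+IGF-1 against 15Q were also lost with the choroid plexus marker level as a covariate (0.203 for Abcg1 and 0.253 for Abca7), with that of oligodendrocytes (0.201 and 0.357) and without the 3 libraries high in choroid plexus markers (0.187 and 0.535). In 84Q against 15Q, Abcg1 stood at 0.280 without those 3 libraries.

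In all 84Q libraries against 15Q, 3 of the 30 genes rose in edgeR, against 4.04% of all genes, and 2 fell, against 6.01%. Abcg1 (log2 fold change 0.27, adjusted p = 0.0132), Abca7 (0.19, adjusted p = 0.0759) and Insig2, which like Insig1 retains Scap (0.17, adjusted p = 0.0812), rose. Erlin2, a membrane protein of the endoplasmic reticulum (-0.17, adjusted p = 0.0817), and Vldlr, a lipoprotein and reelin receptor (-0.22, adjusted p = 0.0758), fell. Insig2 measured 32.7 to 34.1 CPM in 15Q against 36.2 to 39.8 CPM in the 6 other libraries, without overlap. Erlin2 measured 71.4 to 74.7 CPM against 59.1 to 71.2 CPM, also without overlap, whereas Vldlr measured 155 to 177 CPM against 128 to 156 CPM and overlapped. Without 15Q replicate 3 none of the 5 passed, with the adjusted p of Abcg1 just over the threshold and those of Abca7, Insig2, Erlin2 and Vldlr at 0.310, 0.266, 0.291 and 0.353. Without 15Q replicate 2 these 4 stood at 0.214, 0.183, 0.194 and 0.223. Insig2 and Erlin2 were also lost without 15Q replicate 1 (0.147 and 0.194), 84Q replicate 1 (0.112 and 0.111), 84Q replicate 3 (0.129 and 0.116) or 84Q+IGF-1 replicate 1 (0.126 and 0.113), and Erlin2 without 84Q+IGF-1 replicates 2 and 3 (0.120 and 0.101). Abca7 was lost without 84Q+IGF-1 replicate 1 (0.104), and Vldlr without it (0.119) or 84Q replicate 3 (0.129). With the choroid plexus or oligodendrocyte marker level as a covariate, or without the 3 libraries, Abcg1 alone of the 5 passed.

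Among 11 fatty acid genes that SREBPs also control, none passed in 84Q against 15Q, where the smallest p were those of the elongase Elovl5 (log2 fold change 0.09, adjusted p = 0.316) and the desaturase Fads2 (-0.12, adjusted p = 0.328) in edgeR. Fads2 fell in 84Q+IGF-1 against 15Q, from 128 to 139 CPM down to 105 to 116 CPM (log2 fold change -0.24, SE 0.0633, adjusted p = 0.0835 in edgeR), and 10 of the 11 genes had a negative log2 fold change there, with a median of -0.088. With any one of 15Q replicates 1, 2 and 3 or 84Q+IGF-1 replicates 1 and 2 left out, the adjusted p of Fads2 was 0.182, 0.190, 0.205, 0.247 and 0.133. It was 0.407 and 0.313 with the choroid plexus or oligodendrocyte marker level as a covariate, and 0.636 without the 3 libraries high in choroid plexus markers. In all 84Q libraries against 15Q no fatty acid gene passed, the smallest adjusted p being 0.1035 for Fads2 and 0.2005 for the desaturase Scd2 in edgeR. None of the further cholesterol or fatty acid genes passed in 84Q+IGF-1 against 84Q, where the smallest p in the cholesterol list were those of Scarb1, a lipoprotein receptor (log2 fold change -0.22), and Erlin1 (0.20), and in the fatty acid list those of Fads1 (-0.20) and Me1 (-0.12), each with an adjusted p of 0.969 in edgeR.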

How the data were processed

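Cerebellar RNA of 9 mice was sequenced as strand-specific paired-end libraries. According to the methods and labels, the authors trimmed reads with Trimmomatic 0.36, aligned them with HISAT2 2.2.0 to GRCm38.p6 (mm10) and counted them with featureCounts. The deposited values are raw read counts per gene, and the annotation and strand setting are not given in the sources used here. Symbols and positions were taken from GENCODE vM21, which matched 37681 of 37816 identifiers. The members and gene lists were chosen with earlier results of these data known.

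Counts were tested with edgeR 4.0.16 in R 4.3.3 (TMM scaling, filterByExpr, one quasi-likelihood fit over all 9 libraries, p-values adjusted over all tested genes by Benjamini and Hochberg). DESeq2, the package the study used in another version, was an alternative, run here as version 1.42.0. A gene passed at an adjusted p under 0.1 and was differentially expressed if it also differed by 1.5-fold. CPM used TMM factors, TPM the GENCODE exon length, and log2 CPM a prior count of 2. The tests were checked on simulated counts. All 32 members could be named. Values in every library were given for members that passed, for the 3 with the smallest p in each comparison, and for Hmgcs1, Sqle, Srebf2, Insig1, Abca1, Apoe and Cyp46a1. Of the other lists, genes that passed were named, otherwise those with the smallest p. Each library is 1 mouse, so p-values set the group differences against the spread between these mice. Replicate numbers were given by the labels, which do not state a pairing of mice. Other settings tried are described at the end, except that gene tests were also run with DESeq2 size factors and with robust shrinkage.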

Additional observations from a re-analysis of the deposited data

How the results depend on the processing

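The 3 mice per group, the low depth at Ch25h and the near-threshold p-values limit what can be said of single genes. None of the 1419 alternative values of named genes reversed in direction: 1211 kept their side of the threshold, 185 lost it and 23 gained it. The cause of the moves was not tested. Differentially expressed members in 84Q against 15Q (1) went to 0 with DESeq2, an adjusted p under 0.05, a replicate block, Xist as a covariate, or without the 3 libraries high in choroid plexus markers, and to 3 with no fold threshold. Leaving out each library gave 0 to 1. In 84Q+IGF-1 against 15Q (0) they went to 3 with no fold threshold and 1 with no filter on low counts, and to 0 to 1 leaving out each library. In all 84Q libraries against 15Q (1) they went to 6 with no fold threshold and 0 without the 3 libraries high in choroid plexus markers, and to 0 to 2 leaving out each library.

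Members past an adjusted p of 0.1 at any fold were counted as an addition chosen after seeing the data, as were the marker covariates and the exclusion of 3 libraries. In 84Q against 15Q (3) the count was 0 at 0.05, 1 with upper-quartile factors, 0 with a replicate block, 0 with Xist, 1 with choroid plexus markers, 5 with oligodendrocyte markers and 0 without the 3 libraries, and 0 to 3 leaving out each library. In 84Q+IGF-1 against 15Q (3) it was 5 with DESeq2, 9 with no filter, 6 with only the groups compared, 1 with either marker covariate and 0 without the 3 libraries, and 1 to 6 leaving out each library. In all 84Q libraries against 15Q (6) it was 1 at 0.05, 2 with a replicate block, 3 with Xist, 2 with choroid plexus markers, 1 with oligodendrocyte markers and 0 without the 3 libraries, and 0 to 9 leaving out each library. In 84Q+IGF-1 against 84Q it stayed 0 in every alternative run. Same-numbered mice did not deviate together (correlations of -0.309 to 0.0788). With 3 mice per group this cannot exclude a pairing in the design, and the labels state none. With a replicate block, 3 members (Nr1h2, Scap, Ch25h) and Abcg1 (0.122) lost the call in 84Q against 15Q, Fads2 (0.160) and Abca7 (0.112) in 84Q+IGF-1 against 15Q, and Scap, Idi1, Cyp51, Stard4, Insig2 (0.147), Erlin2 (0.129) and Abca7 (0.117) in all 84Q libraries against 15Q. With Xist, Abcg1 (0.112) in 84Q against 15Q and Abca7 (0.110) in 84Q+IGF-1 against 15Q lost it, as did Insig2 (0.135), Erlin2 (0.129), Vldlr (0.172) and Abca7 (0.171) in all 84Q libraries. Upper-quartile factors ended the calls of Nr1h2 (0.104), Scap (0.113), Insig2 (0.124) and Abca7 (0.113) in all 84Q libraries. There Insig2 was also lost with no filter (0.168). In 84Q against 15Q, Scap was lost with only the groups compared (0.108). The enzymes' mean log2 difference was recomputed with DESeq2 size factors, upper-quartile factors or library totals only. Further runs used a prior count of 0.5, the median over the enzymes, or each library left out. In all of these it moved by less than the pooled SD of the groups compared (0.063 to 0.088). It was not computed with any covariate, with a replicate block or without the 3 libraries. Leaving out each library gave values from -0.21 to -0.12 for 84Q+IGF-1 against 15Q and from -0.20 to -0.11 against 84Q. For 84Q against 15Q the values ran from -0.056 to 0.029, where the sign thus changed. Over all genes, the differentially expressed count in 84Q against 15Q (414) was 243 at 0.05, 928 with no fold threshold, 1025 with no filter, 242 with a replicate block, 654 with oligodendrocyte markers, 94 without the 3 libraries, and 184 and 185 without 15Q replicate 2 or 3. In 84Q+IGF-1 against 15Q (435) these were 281, 711, 1284, 271, 143, 189, 244 and 226, with 258 for choroid plexus markers. In 84Q+IGF-1 against 84Q (0) DESeq2 gave 6, no filter 168, leaving out 84Q replicate 2 or all 3 libraries 9, and leaving out 84Q+IGF-1 replicate 3 gave 1. In all 84Q libraries against 15Q (672) the count was 446 at 0.05, 1944 with no fold threshold, 1235 with no filter, 427 with Xist, 340 and 278 without 15Q replicate 2 or 3, and 273 without the 3 libraries.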
